A study of Mus musculus with 6 samples.

Results

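Thrombospondins, tenascins, periostin and Sparc are matricellular proteins: they are secreted into the extracellular matrix, where they tune how cells attach, migrate and receive growth factors, rather than bearing load as collagens do. The 6 genes described here, Thbs1, Thbs2, Thbs3, Tnc, Postn and Sparc, were taken by symbol from the authors' deposited table of 14472 genes, and each of the 6 was found on 1 row with a p-value. They were measured by RNA-seq in mLPS1, mouse cells of a dedifferentiated liposarcoma, a malignant tumour that arises from fat precursors. The altered line, labelled NICD knockout, gave 3 libraries whose titles carry the p numbers 34, 36 and 39, and the wild type line gave 3 libraries with the p numbers 35, 37 and 40. NICD is the intracellular domain of a Notch receptor, which moves to the nucleus on activation and activates transcription with its DNA-binding partner Rbpj. The labels give no other allele or agent, while the title of the series names Notch over-expression and the design text names dNICD cells. Nothing in them says whether the altered line is a single clone or whether separate cultures were sampled, and p-values reflect variation among these libraries alone, and that variation may be technical.

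Matricellular proteins are scarce in most resting adult tissues and abundant in embryonic mesenchyme, healing wounds and tumour stroma. Thrombospondins bind calcium and cell-surface receptors such as Cd36, Cd47 and integrins. Thbs1 and Thbs2 are inhibitors of blood vessel growth, and Thbs1 can also activate latent TGF-beta, whereas Thbs3 belongs to the subgroup that lacks the repeats responsible for those activities. Tenascin C weakens the adhesion of cells to fibronectin. Periostin links collagen, fibronectin and tenascin C and promotes collagen cross-linking, and Sparc binds collagen and calcium and takes part in collagen fibril assembly.

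For every gene the table holds the normalised count averaged over libraries and the log2 fold change (log2FC) of NICD knockout over wild type with its standard error (SE). Values of single libraries were not analysed here, so depth per library is unknown and no spread within a group can be given. Levels per group were therefore derived from that average and the log2FC, assuming that 3 libraries of each group entered, and linear fold changes and 95% Wald intervals were computed from the same columns. The direction is taken from the name of the table. In bulk RNA, fewer cells of a type and less RNA per cell cannot be told apart. As a check of the label, Notch1 had a fitted normalised count of 2234 in the NICD knockout and 7665 in wild type, and the direct Notch target Nrarp had 126.6 in the NICD knockout and 10040 in wild type. The 5 mesenchymal markers were all in the table, with a summed fitted level of 76987 in the NICD knockout and 145819 in wild type. Vim, Col1a1 and Pdgfrb fell, with log2FC values of -0.56, -1.94 and -3.02 in the authors' deposited table, while Col1a2 and Pdgfra rose, with 1.27 and 2.36. Of the 4 leukocyte markers 2 were present, with a summed fitted level of 2251 in the NICD knockout and 182.8 in wild type, most of it from the lysosomal gene Cd68 (2238 in the NICD knockout and 179.0 in wild type), while the defining leukocyte gene Ptprc had 13.7 in the NICD knockout and 3.74 in wild type. The 4 endothelial markers summed to 50.1 in the NICD knockout and 63.6 in wild type, and the 1 epithelial marker present, Krt8, had 54.4 in the NICD knockout and 5.38 in wild type. Of the 4 adipocyte markers, Fabp4 alone was present, at 307.4 in the NICD knockout and 4.37 in wild type. The part of these cell types in the results was not tested.

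The promoters of Tnc, Postn and Thbs3 are shown because Postn had the steepest fall, the Tnc window holds the core motif of Rbpj, and Thbs3 was the 1 gene that rose. Windows run from 250 bases before the RefSeq transcription start to 20 bases from it on, in GRCm38.p6, on the strand of the gene. Where RefSeq gives several starts, the one nearest to the GENCODE M21 gene start was used. Capitals mark matches on either strand to TGGGAA, the core bound by Rbpj (read as TTCCCA on the other strand), or to the TATA box TATAAA.
Tnc: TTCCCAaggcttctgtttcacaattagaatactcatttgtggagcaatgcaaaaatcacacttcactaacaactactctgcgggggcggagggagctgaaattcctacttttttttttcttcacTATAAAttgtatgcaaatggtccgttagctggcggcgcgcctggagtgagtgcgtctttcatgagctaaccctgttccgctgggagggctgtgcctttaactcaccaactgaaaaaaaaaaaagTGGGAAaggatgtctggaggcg
Postn: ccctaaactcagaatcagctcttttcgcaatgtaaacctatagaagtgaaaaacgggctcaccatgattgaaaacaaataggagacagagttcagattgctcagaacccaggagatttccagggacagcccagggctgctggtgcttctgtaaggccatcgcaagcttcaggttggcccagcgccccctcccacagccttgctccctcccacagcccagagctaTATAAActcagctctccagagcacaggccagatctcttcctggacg
Thbs3: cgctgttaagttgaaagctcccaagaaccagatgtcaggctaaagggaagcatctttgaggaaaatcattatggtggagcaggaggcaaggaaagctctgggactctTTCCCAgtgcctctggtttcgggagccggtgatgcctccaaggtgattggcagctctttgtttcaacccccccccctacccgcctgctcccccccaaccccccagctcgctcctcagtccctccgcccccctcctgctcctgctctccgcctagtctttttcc
The Tnc window lies at chr4:64046996-64047265 on the minus strand, reaches the first exon of Tnc and is inside the span of the non-coding gene 8030451A03Rik of the opposite strand. It holds 2 matches to TGGGAA, 1 that starts 250 bases and 1 that starts 2 bases before the transcription start, and a TATAAA that begins 126 bases before it. The Postn window, chr3:54360857-54361126 on the plus strand, reaches the first exon of Postn and has a TATAAA that begins 26 bases before the start and no match to TGGGAA. The Thbs3 window, chr3:89214930-89215199 on the plus strand, lies within an intron of Mtx1 up to the first exon of Thbs3 and has 1 match to TGGGAA. The windows of Thbs2 and Sparc held no TGGGAA, although that of Thbs2 held TATAAA on the opposite strand, and the Sparc window begins from a RefSeq start 3103 bases from the GENCODE gene start, over a Sparc exon, so it may not cover the promoter in use, and none of the 5 windows held CACGTG or CACGCG, sequences bound by Hes and Hey repressors, or the AP-1 site TGANTCA. Among 32851 RefSeq windows of the same length, 23.1% held TGGGAA, 12.9% TATAAA, 6.57% CACGTG, 8.33% CACGCG and 7.23% TGANTCA on either strand, and no 2 matches in the windows of these genes overlapped.

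Across the 6 genes, 3 fell and 1 rose in the NICD knockout. Postn, Tnc and Sparc fell, Thbs3 rose, and Thbs1 and Thbs2 did not pass an adjusted p of 0.05 in the authors' deposited table, whose columns are those of DESeq2 with Benjamini-Hochberg adjustment over all genes. Across all genes, 50.5% of 14470 tested genes passed, 25.4% higher and 25.1% lower, and among the 10479 genes whose mean reached 100, the range that holds all 6, 54.6% passed, 24.4% higher and 30.2% lower. The share of the 6 that passed is thus near that of the table as a whole. Their median log2FC was -0.74, beside 0.02 over all tested genes and -0.05 over those with a mean of at least 100.

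**Figure D1:**
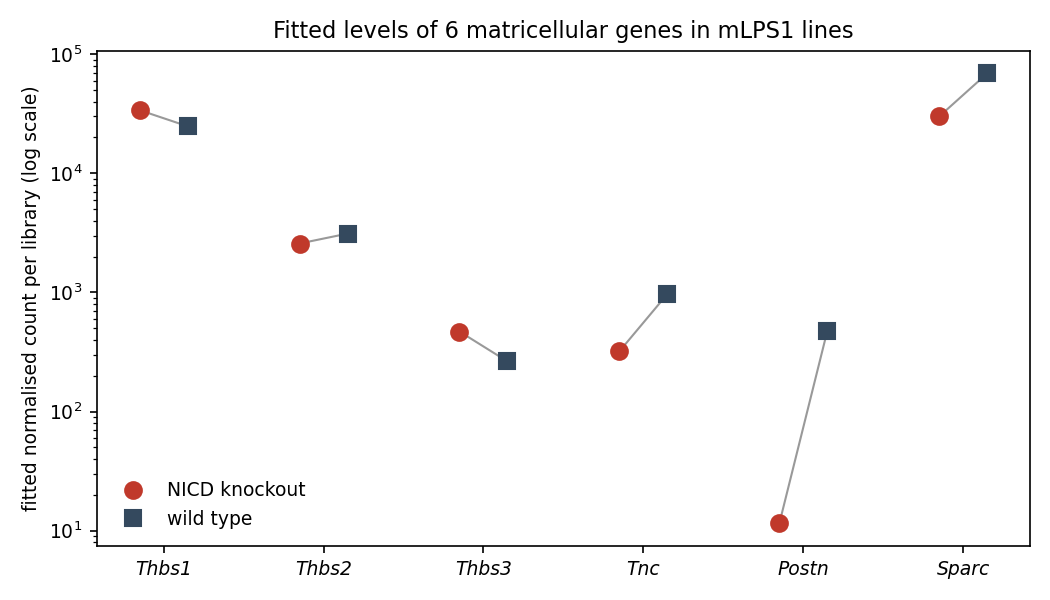
Fitted normalised count per library (log axis) of the 6 matricellular genes, with the NICD knockout as circles and wild type as squares; values are fitted from the authors' mean and fold change, so no error bars can be drawn. The widest gap is that of Postn, at 11.6 in the NICD knockout and 478.8 in wild type.

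Among the thrombospondins, Thbs3 passed the test, while Thbs1 and Thbs2 did not. The fitted normalised count of Thbs3 was 469.7 in the NICD knockout and 263.5 in wild type. The authors' deposited table gives Thbs3 (ENSMUSG00000028047) a log2FC of 0.83 (SE 0.27, adjusted p = 0.00534, DESeq2), a 1.78-fold rise with an interval of 1.24-fold to 2.57-fold. Its log2FC was above that of 79.9% of tested genes, and 2907 genes rose more. The whole span of Thbs3 is overlapped by Mtx1, a gene of the mitochondrial outer membrane on the opposite strand, and the labels do not say whether counting used strand. Mtx1 had a fitted normalised count of 675.8 in the NICD knockout and 652.9 in wild type, with a log2FC of 0.05 (interval -0.20 to 0.30, adjusted p = 0.772) in the authors' deposited table. The mucin gene Muc1, which begins within 3000 bases of the end of Thbs3 on the same strand, had 65.7 in the NICD knockout and 38.3 in wild type, a log2FC of 0.78 (SE 0.35, adjusted p = 0.0484, DESeq2) in the authors' deposited table. The part of these neighbours in the Thbs3 value was not tested.

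Thbs1 was fitted at 33857 normalised counts in the NICD knockout and 24806 in wild type. Its log2FC of 0.45 in the authors' deposited table (SE 0.22, unadjusted p = 0.0382, adjusted p = 0.0715, DESeq2) missed the threshold, and the interval ran from 0.02 to 0.87. The 10 expressed protein-coding genes on each side of Thbs1 on chromosome 2 had a median of -0.61 in log2FC, so Thbs1 stood 1.06 above its neighbourhood. With that median subtracted throughout, Thbs1 passed (adjusted p = 5.78e-06), and it also passed when all fold changes were centred on the median of expressed genes (0.50, adjusted p = 0.0433). Its call therefore depends on the baseline. Both subtracted medians were negative, so its positive sign could not have turned. The adjusted p after neighbour subtraction also ignores the error of the neighbour median. Thbs2, the close relative of Thbs1, had a fitted normalised count of 2573 in the NICD knockout and 3116 in wild type. Its log2FC was -0.28 in the authors' deposited table (SE 0.20, adjusted p = 0.239, DESeq2), and its interval of -0.66 to 0.11 leaves room for a fall of up to 1.58-fold. The neighbours of Thbs2 on chromosome 17 had a median of -0.18.

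Tnc was fitted at 321.0 normalised counts in the NICD knockout, 33.0% of the 971.4 in wild type. The fall was 3.03-fold, with an interval of 2.39-fold to 3.84-fold, and the authors' deposited table gives Tnc (ENSMUSG00000028364) a log2FC of -1.60 (SE 0.18, adjusted p = 1.17e-18, DESeq2). It also passed a Wald test of whether the change exceeds 2-fold (adjusted p = 0.00694), and 933 genes of the table fell more. The non-coding gene on the other strand covers 77.0% of the span of Tnc and was not analysed here.

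Postn had the steepest fall of the 6. Its fitted normalised count was 11.6 in the NICD knockout and 478.8 in wild type, so the knockout held 2.42% of the wild type level. The authors' deposited table gives Postn (ENSMUSG00000027750) a log2FC of -5.37 (SE 0.90, adjusted p = 1.82e-08, DESeq2). The size of the fall, 41.4-fold, is poorly bounded, with an interval of 12.1-fold to 140.9-fold, but its lower end is beyond 2-fold (adjusted p = 1.98e-05 in the Wald test beyond 2-fold). The fall was exceeded by 156 genes of the table. Sparc fell by a smaller factor. It was fitted at 30066 normalised counts in the NICD knockout and 69094 in wild type, a 2.30-fold fall with an interval of 1.75-fold to 3.01-fold. The authors' deposited table gives Sparc (ENSMUSG00000018593) a log2FC of -1.20 (SE 0.20, adjusted p = 1.05e-08, DESeq2), while the median of its neighbours on chromosome 11 was 0.20. Sparc did not pass the test of a change beyond 2-fold.

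**Figure D2:**
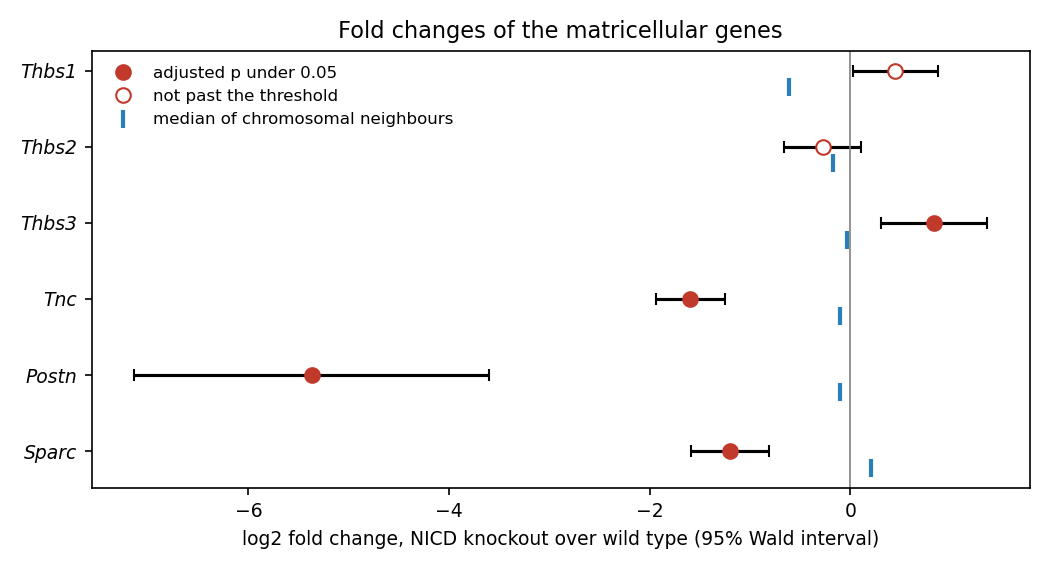
Log2FC, NICD knockout over wild type, of each gene with its 95% Wald interval; filled circles passed an adjusted p of 0.05, open circles did not, and blue ticks mark the median of 10 expressed neighbours on each side. The intervals of Tnc, Postn and Sparc lie below 0 and those of Thbs3 and Thbs1 lie above it, though Thbs1 did not pass after adjustment. Thbs1 lies well above the tick of its neighbours at -0.61.

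Because the libraries are shared by all genes and the table holds no covariances, differences between members were given the widest interval that any correlation allows, by adding both standard errors. Of 15 pairs, 12 had an interval that left out 0, with no adjustment over pairs. Thbs3 stood above Thbs2 by 1.11 on the log2 scale, with an interval of 0.20 to 2.02. Thbs1 minus Thbs2 was 0.72, with an interval of -0.08 to 1.53, and Thbs1 minus Thbs3 was -0.39 (-1.34 to 0.57). Tnc and Sparc fell by amounts that differed by -0.40 (-1.13 to 0.34), so these 3 pairs could not be separated. Postn lay below each of the other 5, at a difference from Tnc of 3.77 (Tnc minus Postn, 1.66 to 5.88).

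Levels were compared between genes only per kilobase of the longest GENCODE M21 transcript. In the NICD knockout the order of the fitted normalised counts per kilobase was Sparc at 13072, Thbs1 at 5790, Thbs2 at 436.5, Thbs3 at 116.4, Tnc at 45.2 and Postn at 2.22. In wild type it was Sparc at 30041, Thbs1 at 4242, Thbs2 at 528.5, Tnc at 136.7, Postn at 91.7 and Thbs3 at 65.3. Sparc thus led in both lines, above 99.7% of genes by its mean per kilobase, and Thbs3 stood above Tnc in the NICD knockout and below it in wild type. The order of the lower 3 depends on the length used: Thbs3 has 11 annotated transcripts with a median of 745 bases, and by median length it was at 630.5 in the NICD knockout and 353.6 in wild type, above Tnc and Postn in both. By median length Postn, at 179.3, also stood above Tnc, at 139.4, in wild type. No spread over libraries is known for these levels, so neighbours in the order cannot be tested.

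The fold changes of these genes were less precise than those of most genes of like mean count. Beside the 500 genes nearest in mean count, the SE was higher than in 98.6% of them for Postn, 93.2% for Thbs1, 92.0% for Thbs3, 91.8% for Thbs2 and 88.6% for Sparc. Tnc was nearest to the common range, at 71.2%. The SE of Postn was 0.90 in the authors' deposited table, where the median of its 500 counterparts was 0.20. That of Thbs1 was 0.22 against a median of 0.13. Counterparts were matched on the mean over both groups, and the mean of 245.2 of Postn holds a fitted 11.6 in the NICD knockout. The part of that low level in its SE was not tested. The counterparts of Sparc and Thbs1 overlap and reach down to mean counts of 6214 and 6146, and up to 381431 and 137742.

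**Figure D3:**
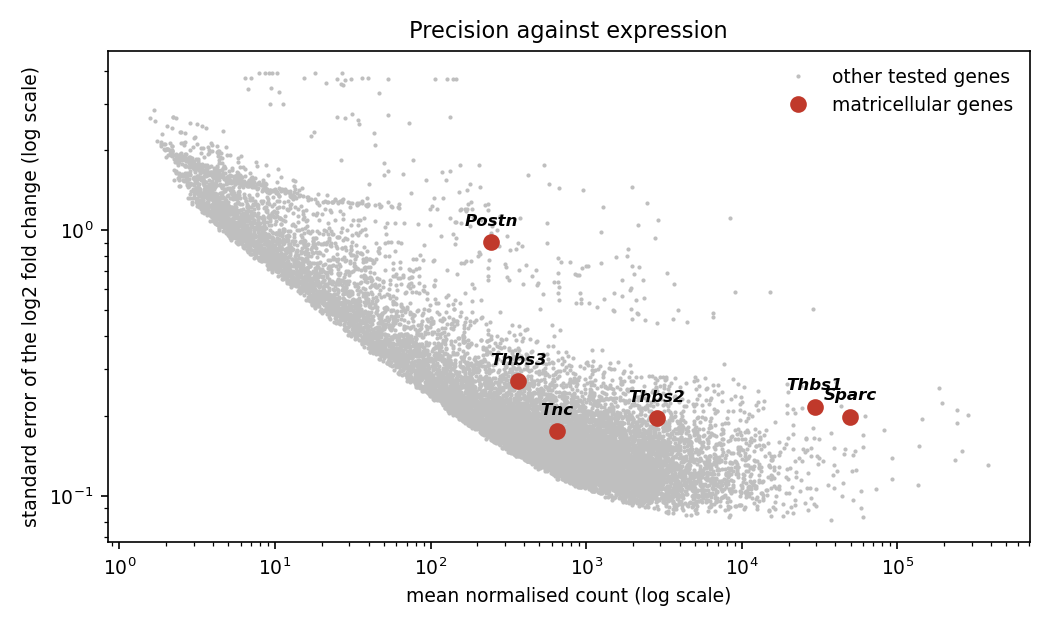
Standard error of the log2FC against mean normalised count, both on log axes, for all tested genes (grey) and the 6 matricellular genes (red). Postn, at 0.90, lies far above the band of genes of its mean, and Tnc lies within it.

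The wider family of matricellular genes moved in both directions. Of 20 further members listed, 13 were tested and 7, among them Thbs4, Comp and Tgfbi, were not analysed here. Higher in the NICD knockout were 6, lower were 3, and 4 did not pass, with a median log2FC of 0.68. The background is 25.4% of all tested genes higher and 25.1% lower. Spp1, the secreted phosphoprotein osteopontin, was fitted at 29060 normalised counts in the NICD knockout and 1700 in wild type, a 17.1-fold rise (log2FC 4.10 in the authors' deposited table, adjusted p = 2.53e-181, DESeq2). Tenascin X, encoded by Tnxb, rose with a log2FC of 5.29 in the authors' deposited table, at 326.4 in the NICD knockout and 8.37 in wild type, while its relative Tnc fell. Sparcl1, the nearest relative of Sparc, fell 65.9-fold, at 38.3 in the NICD knockout and 2523 in wild type. Within the Ccn family, named in full after its values were seen, Ccn1, Ccn2 and Ccn3 rose and Ccn4 and Ccn5 fell. In the authors' deposited table the log2FC values were 0.79, 0.68 and 7.05 for Ccn1, Ccn2 and Ccn3. Those of Ccn4 and Ccn5 were -1.37 and -4.08. Ccn3 was fitted at 809.4 in the NICD knockout and only 6.10 in wild type, with a log2FC interval of 5.60 to 8.50. Ccn6 was not analysed here. Smoc1 and Tnn did not pass, at log2FC values of -1.18 and 0.85 in the authors' deposited table. Their mean normalised counts were low, at 61.6 and 11.7. The intervals were wide, at -2.48 to 0.12 for Smoc1 and -0.69 to 2.39 for Tnn.

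All 21 listed receptors of these proteins were tested: 14 fell, 5 rose and 2 did not pass, with a median log2FC of -0.78, where 25.1% of all tested genes fell and 25.4% rose. Itgb3, the integrin chain that pairs with Itgav to bind thrombospondins, periostin, tenascin C and osteopontin, had a fitted normalised count of 715.2 in the NICD knockout and 5995 in wild type, an 8.38-fold fall. Itga4 fell 15.4-fold, at 400.8 in the NICD knockout and 6155 in wild type. Egfr, which can bind repeats of tenascin C, fell 4.62-fold and the proteoglycan Sdc1 fell 7.07-fold, beside a median log2FC of -0.73 among the neighbours of Sdc1 on chromosome 12. The tenascin receptor Itga9, named after its value was seen, was at 8.88 in the NICD knockout and 1117 in wild type, with a log2FC of -6.98 (SE 1.07, adjusted p = 5.78e-10, DESeq2) in the authors' deposited table. The thrombospondin receptor Cd47, also named after its value was seen, rose 2.17-fold, at 1970 in the NICD knockout and 907.8 in wild type. The endocytic receptor Lrp1, which clears thrombospondin complexes, had a log2FC of 0.18 (interval -0.23 to 0.58, adjusted p = 0.5003, DESeq2), and Itgb5 had -0.09 (-0.40 to 0.21), both from the authors' deposited table. For Itgb5 the sign turned with neighbours subtracted, at 0.26.

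Of 8 tested proteases that cut or release matricellular proteins and their partners, 6 fell and 2 rose, with a median log2FC of -1.26, beside 25.1% lower and 25.4% higher among all tested genes. Furin, a convertase of secreted precursors, fell 2.62-fold, and Bmp1, which trims procollagens and is bound by periostin, fell 2.89-fold. Adamts1, which cleaves thrombospondins, was fitted at 231.9 in the NICD knockout and 735.7 in wild type, a 3.17-fold fall, beside a median log2FC of -1.15 among its neighbours on chromosome 16. The gelatinase gene Mmp9 rose 16.0-fold, at 145.6 in the NICD knockout and 9.08 in wild type. Mmp3, named after its value was seen, was the other that rose, with a log2FC of 3.29 in the authors' deposited table. Both were of low abundance, with mean normalised counts of 77.3 for Mmp9 and 44.5 for Mmp3.

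Of 10 tested matrix partners to which these proteins bind, 7 were lower, 1 was higher and 2 did not pass. Their median log2FC was -1.73, while over all tested genes 25.1% were lower and 25.4% higher. Col1a2, the 1 that rose, had a mean normalised count of 26.5, and Vtn, among those that fell, had 5.54. Fibronectin, encoded by Fn1, fell 2.61-fold, at 51273 in the NICD knockout and 134012 in wild type. The basement membrane collagen genes Col4a1 and Col4a2, which share a promoter region, fell 4.10-fold and 3.26-fold, and the fibrillar collagen gene Col3a1 fell 9.50-fold. The perlecan gene Hspg2 had a log2FC of 0.01 (interval -0.40 to 0.42), and the versican gene Vcan had -0.50 (adjusted p = 0.0622, DESeq2), both in the authors' deposited table.

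Of 10 listed transcription regulators, 3 fell, 3 rose and 4 did not pass, with a median log2FC of 0.01. These counts are near the share over all tested genes (25.1% lower and 25.4% higher). Whether each acts on the promoters of the described genes was not tested. Ets1, an activator of Tnc, fell 2.34-fold, at 1321 in the NICD knockout and 3090 in wild type. Twist1, an activator of Postn, fell 1.97-fold, at 562.8 in the NICD knockout and 1106 in wild type. Trp53, an activator of Thbs1, rose 1.71-fold, at 6680 in the NICD knockout and 3904 in wild type, while Thbs1 itself did not pass. Rbpj rose 2.58-fold, at 3650 in the NICD knockout and 1416 in wild type. Prrx1 and Id1, named after their values were seen, also passed, with log2FC values of -0.59 and 0.65 in the authors' deposited table. Egr1 and Mrtfa did not pass, at log2FC values of 1.08 (interval -0.15 to 2.31) and -0.19 (-0.49 to 0.10) in the authors' deposited table.

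**Figure D4:**
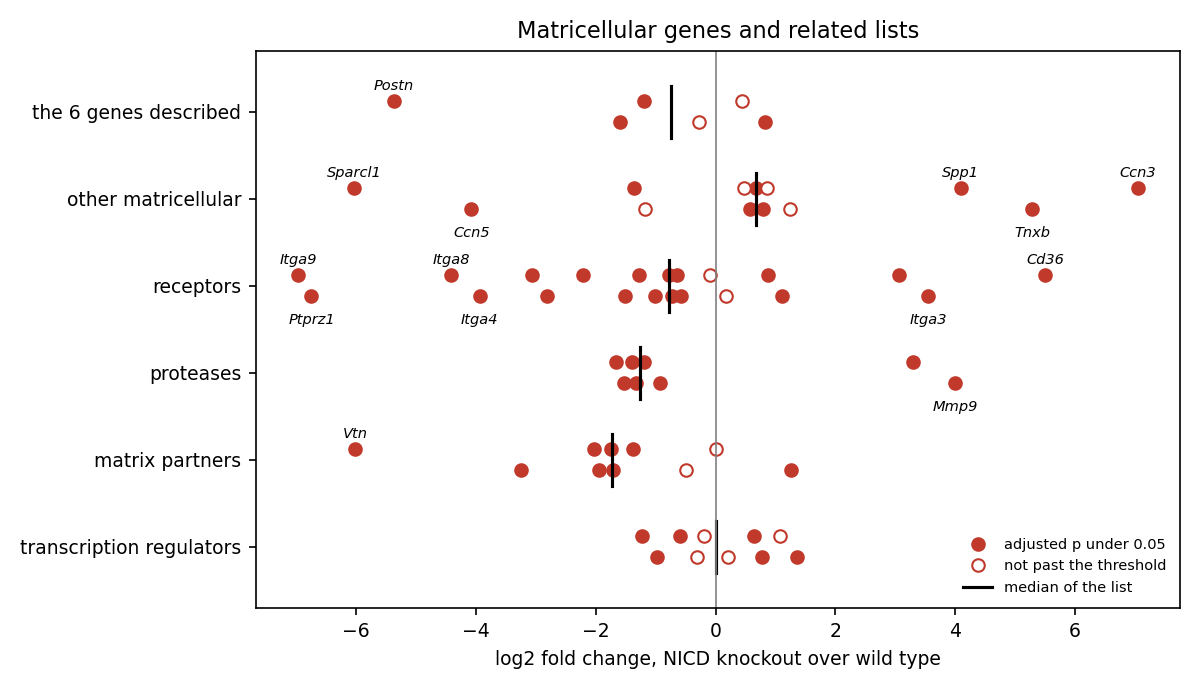
Log2FC, NICD knockout over wild type, of every tested gene in 6 lists; filled circles passed an adjusted p of 0.05, open circles did not, black bars are list medians, and genes beyond 3.5 either way are named. The medians of receptors, proteases and matrix partners lie below 0 at -0.78, -1.26 and -1.73, while the other matricellular genes spread from -6.04 to 7.05.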

How the data were processed

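RNA of 6 libraries was extracted with TRI Reagent, per the labels' protocols, and Salmon, DESeq2 and mm39 are named in the submitters' processing notes without versions or settings. The table the authors deposited holds, per the file headers, for each gene the mean of counts after division by size factors (a signal that is never negative), a log2 fold change with its SE, the Wald statistic (a score) and the p-value with its adjusted form. Recomputing the last 3 gave differences of at most 1.56e-13. The authors' table has 2 rows without a p among 14472. Group levels, intervals (1.96 SE), neighbour medians and pair differences were computed here. The calls are the authors' at an adjusted p under 0.05, and the edgeR test foreseen for counts was not run, since values of single libraries were not analysed here. Depth per library is unknown.

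The 6 genes and the 5 other lists were chosen with earlier results of these data known. Named are the 6 genes, in each other list up to 4 passing genes with the smallest p and up to 2 others with the highest mean, plus Notch1 and Nrarp; Heyl, also foreseen, is described in no comparison. Gene order and lengths came from GENCODE M21 (GRCm38), matched by identifier for 14456 rows (99.9%). RefSeq promoter windows (GRCm38.p6) were matched by symbol for 5 of the 6 genes. Alternatives were a threshold of 0.01, Bonferroni adjustment, a test beyond 2-fold, filters at means of 10 and 100, centring and neighbour subtraction. The adjustment, the test beyond 2-fold, the neighbour medians and the group levels were tested on simulated data. These had independent errors and far fewer changed genes than passed here. The authors' own calls and the motif search were not part of that test. Python 3.11.15, numpy 2.4.6, pandas 2.3.3, scipy 1.17.1 and matplotlib 3.10.9 were used.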

Additional observations from a re-analysis of the deposited data

How the results depend on the processing

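Only centring and neighbour subtraction alter the log2FC values, and the signs of the 6 held under both. The centring median of -0.05 was smaller in size than each of the 6 log2FC values, so centring could turn no sign. Neighbour subtraction could not turn that of Thbs1 or Thbs3, which rose beside negative neighbour medians. Nor could it turn that of Sparc, which fell beside a positive one. Tnc and Postn passed under all 7 alternatives. Thbs3 (0.83) did not pass after Bonferroni adjustment or in the test beyond 2-fold, and Sparc (-1.20) did not pass in the latter test, which left 2 of the 6 genes called and by its construction asks for a larger change. Thbs1 passed when centred on the median of expressed genes (0.50) and with the neighbour median subtracted (1.06). Over the whole table the 7303 calls became 3175 after Bonferroni adjustment and 1606 in the test beyond 2-fold. In that test the 50 listed genes called became 26. These were 5 of the other matricellular genes, 10 receptors, 5 proteases, 6 matrix partners and 0 transcription regulators. Itgb5 turned sign with neighbours subtracted (0.26, adjusted p = 0.165). With median transcript length, the mean normalised count per kilobase was 9015 for Thbs1, 718.7 for Thbs2, 492.1 for Thbs3, 92.8 for Tnc, 91.8 for Postn and 39070 for Sparc, against 5016, 482.5, 90.9, 90.9, 46.9 and 21556 with the longest transcript.

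No paired analysis was possible because the table carries no values of single libraries; for the same reason leaving out libraries, TMM scaling and a count test were not run. Subtracting neighbours ignores the error of their median.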

Other observations

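Type I collagen, a binding partner of Sparc and periostin, is made of chains from Col1a1 and Col1a2, which most mesenchymal cells express together. Per kilobase of the longest transcript, Col1a2 was fitted at 6.99 normalised counts in the NICD knockout and 2.90 in wild type, whereas Col1a1 was at 1358 in the NICD knockout and 5205 in wild type. Col1a2 thus lay above only 11.95% of genes by its mean per kilobase and Col1a1 above 97.3%, and their log2FC values had opposite signs in the authors' deposited table, 1.27 for Col1a2 (SE 0.48, adjusted p = 0.0187, DESeq2) and -1.94 for Col1a1 (SE 0.26, adjusted p = 2.14e-12, DESeq2). Both genes were singled out after their values were seen.

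For 3 listed genes the fitted level of a group lay under 1 normalised count per library, a floor of 3 counts over the group, so the size of their change is poorly known. Cd36, the thrombospondin receptor that also takes up fatty acids, was fitted at 17.0 in the NICD knockout and below the floor in wild type, with a log2FC interval of 2.64 to 8.36. Ptprz1, a receptor of tenascins, was below the floor in the NICD knockout and at 18.3 in wild type (interval -9.54 to -3.96), and vitronectin, encoded by Vtn, was below the floor in the NICD knockout and at 10.9 in wild type (interval -9.16 to -2.88). All were of low abundance, with means under 10 in the authors' deposited table.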
